A study of Mus musculus with 6 samples.

Results

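Imprinted genes are expressed from a single parental copy, and many of them act on fetal growth. The 8 genes described here, H19, Dlk1, Meg3, Peg3, Plagl1, Mest, Grb10 and Ndn, were chosen by symbol as imprinted growth genes. The platform annotation paired 34 of 45101 probe sets with exactly 1 of these genes. Of these, 33 carried no other gene name, and the only probe set of H19 was annotated to H19 and to the microRNA gene Mir675, so it is called the H19/Mir675 probe set. In 17 of the 34 probe sets the highest of the 6 values reached 7.95 log2 units, the median of all values in the table, and each of the 8 genes had at least 1 such probe set.

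The cells were C2C12, a mouse myoblast line that fuses into muscle fibres when serum is lowered, used within 5 passages. Parental cells were taken in growth medium with 10% fetal bovine serum, at day 0 directly after the switch of a confluent culture to medium with 2% horse serum, and at day 2 and day 4 of that medium. A further 2 arrays, both day 0, came from stable lines transfected with Lipofectamine 2000 and selected in G418 at 500 μg/ml for 2 weeks, the shRp58 line with a hairpin against Rp58 and the control line with what the labels call both a LacZ vector and a control hairpin. Whether these lines were pools or clones is not given in the sources used here. Each of the 6 groups held 1 Affymetrix mouse 430 2.0 array, so no difference has a replicate error or a test, and a difference between 2 arrays is a description.

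The deposited values are log2 intensities. Array medians were 8.26 to 8.27 in the time course, 7.149 in the shRp58 line and 7.146 in the control line, so levels are compared only within the time course or between the stable lines unless this is said. Rp58 is the repressor gene Zbtb18, and its probe set read 11.16 in the shRp58 line and 11.69 in the control line. Muscle markers accompanied the days: the summed linear signal of 12 myogenic genes was 37.1% of the day 0 sum in growth medium, 235% at day 2 and 292% at day 4. For 9 mitosis genes the sums were 119% in growth medium, 18.9% at day 2 and 12.6% at day 4. Between the stable lines, 11 of the 12 myogenic genes were lower in shRp58 cells (median -0.96) and all 9 mitosis genes were higher (median 0.84). Of all genes with a value of at least 7.95, 51.3% were lower there and 47.5% higher. The 6 leukocyte and endothelial markers read 5.43 to 9.46 on the time-course arrays, none is 0 on this scale, and their sums ran from 100.2% to 104% of day 0 in the other 3 samples. The time-course values of the brightest Plagl1, Dlk1, Grb10 and Ndn probe sets lie within the 5.43 to 9.46 of these markers, so a reading of this size does not by itself show expression. The part of these shifts in the values below was not tested, and in bulk RNA fewer cells of a type cannot be told apart from less RNA per cell.

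H19 and Meg3 are noncoding RNAs expressed from the maternal copy. H19 shares its control elements with the growth factor gene Igf2 and stays active in skeletal muscle after birth, while Meg3 lies beside Dlk1 in a region dense in small RNAs. Peg3, also known as Pw1, and Plagl1, also known as Zac1, are zinc finger proteins from the paternal copy. Dlk1 encodes a membrane protein with EGF-like repeats, Mest a protein of the hydrolase fold, Grb10 an adaptor that dampens insulin and IGF1 receptor signalling, and Ndn the MAGE protein necdin. Dlk1, Mest and Ndn are expressed from the paternal copy, and Grb10 from the maternal copy in most tissues but from the paternal one in neurons.

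In the RefSeq annotation of GRCm38.p6, 3 of the 8 gene intervals hold microRNAs. They are shown because the H19 probe set carries the Mir675 name and because host transcripts were measured here while mature microRNAs were not. Capitals mark the seed, bases 2 to 8. The H19 pair lies at chr7:142577112-142577133 and chr7:142577078-142577099 on the minus strand, the Mest pair at chr6:30741314-30741336 and chr6:30741354-30741375 on the plus strand, and the 3 of Meg3 at chr12:109544588-109544609, chr12:109563710-109563731 and chr12:109563744-109563765 on the plus strand.
mmu-miR-675-5p: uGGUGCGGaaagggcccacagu
mmu-miR-675-3p: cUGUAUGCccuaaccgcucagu
mmu-miR-335-5p: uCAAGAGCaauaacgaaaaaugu
mmu-miR-335-3p: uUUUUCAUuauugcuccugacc
mmu-miR-1906: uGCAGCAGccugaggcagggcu
mmu-miR-770-5p: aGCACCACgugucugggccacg
mmu-miR-770-3p: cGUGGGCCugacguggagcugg
No 2 of these 7 seeds are the same.

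The 250 bases upstream of the annotated start are printed for Plagl1, Peg3, Mest and Ndn, whose brightest probe sets were at least 1.5-fold apart at day 0 against growth medium or between the stable lines. Capitals mark matches on either strand to CANNTG, the E-box that MyoD-family proteins can bind, or to GGGGCCCC, a core of the Plagl1-type site. ACATCTG, the core of the Zbtb18-type site, which contains an E-box, was searched too. Promoter tables were at hand for 7 of the 8 genes, with 11 starts. Of 32851 mouse promoter windows of this length, 66.2% held CANNTG, 3.71% ACATCTG and 0.889% GGGGCCCC.
Plagl1, chr10:13090582-13090831, plus strand: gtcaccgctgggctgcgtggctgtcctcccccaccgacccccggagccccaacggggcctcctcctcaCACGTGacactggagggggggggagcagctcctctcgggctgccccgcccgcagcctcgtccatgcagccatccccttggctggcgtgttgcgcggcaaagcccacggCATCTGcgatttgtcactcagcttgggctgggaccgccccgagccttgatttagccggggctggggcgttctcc
Peg3, chr7:6730420-6730669, minus strand: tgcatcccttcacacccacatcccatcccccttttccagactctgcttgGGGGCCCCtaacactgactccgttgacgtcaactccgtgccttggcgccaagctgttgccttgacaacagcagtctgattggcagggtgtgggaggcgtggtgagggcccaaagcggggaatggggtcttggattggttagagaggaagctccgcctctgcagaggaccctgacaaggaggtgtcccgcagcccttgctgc
Mest, first start, chr6:30733256-30733505, plus strand: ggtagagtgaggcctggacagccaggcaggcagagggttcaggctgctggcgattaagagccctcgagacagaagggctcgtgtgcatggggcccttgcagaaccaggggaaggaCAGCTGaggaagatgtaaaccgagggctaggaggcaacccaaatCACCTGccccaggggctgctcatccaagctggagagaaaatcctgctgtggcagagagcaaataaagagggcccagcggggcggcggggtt
Mest, second start, chr6:30737800-30738049, plus strand: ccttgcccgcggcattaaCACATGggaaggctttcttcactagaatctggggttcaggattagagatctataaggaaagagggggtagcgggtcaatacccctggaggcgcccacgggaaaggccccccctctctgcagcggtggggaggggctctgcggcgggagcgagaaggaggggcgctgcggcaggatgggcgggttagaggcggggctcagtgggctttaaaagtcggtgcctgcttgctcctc
Ndn, chr7:62348027-62348276, plus strand: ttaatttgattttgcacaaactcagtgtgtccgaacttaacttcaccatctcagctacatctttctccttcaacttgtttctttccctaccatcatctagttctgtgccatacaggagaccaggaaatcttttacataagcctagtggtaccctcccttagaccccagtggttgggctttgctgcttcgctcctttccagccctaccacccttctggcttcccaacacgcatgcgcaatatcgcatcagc
Plagl1 and the first Mest window held 2 E-box letters each and the second Mest window 1. The letters ACATCTG were in none of the 11 member windows, and GGGGCCCC was in the Peg3 window alone of these 11. CpG pairs numbered 19 in the Plagl1 window, 14 in the second Mest window, 8 in the Peg3 window and 5 in the Ndn window, against a median of 6 over all windows.

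Within the time course and between the stable lines, 7 of the 8 genes stayed within 2-fold in every comparison. In each comparison so did most of the 13242 kept genes, those with a highest value of at least 7.95. At day 0 against growth medium 2.91% of kept genes were 2-fold higher and 0.317% lower. The shares were 2.67% and 2.96% at day 2 and 3.83% and 5.66% at day 4, both against day 0. They were 0.808% each way at day 4 against day 2, and 0.0529% and 0.619% in shRp58 against control cells. Of 12 myogenic genes, 9 were 2-fold higher at day 4 than at day 0, Myh3 by 2.28 log2 units, and 1 was 2-fold lower. Among the 8, Plagl1 was the exception, 2.04-fold lower at day 0 than in growth medium. Peg3 (1.67-fold) and Mest (1.76-fold) were at least 1.5-fold higher at that step, and Mest was 1.69-fold lower on day 2 than on day 0. Between the stable lines the largest difference was Ndn, 1.75-fold higher in shRp58 cells. Each gene is given by its brightest probe set on average unless another is named.

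**Figure D1:**
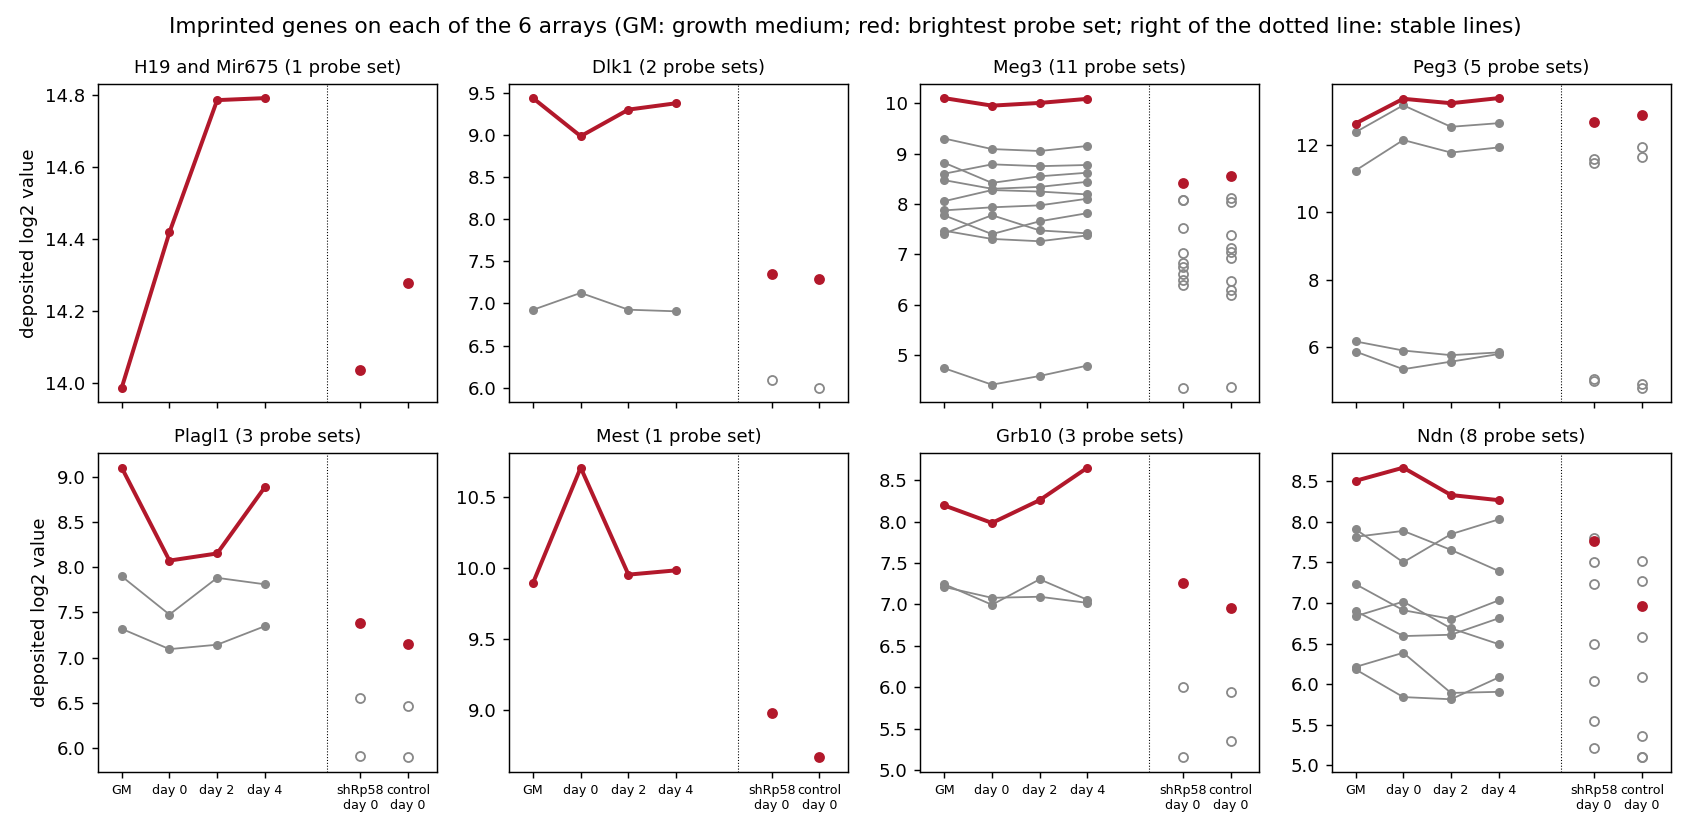
Deposited log2 value (vertical axis, scaled apart for each gene) of all 34 probe sets of the 8 genes on the 4 time-course arrays, joined by lines, and on the shRp58 and control arrays to the right of the dotted line, with 1 array a group and no error bars. The brightest probe set (red) of Plagl1 is lowest at day 0, that of Mest is highest at day 0, and the 3 bright Peg3 probe sets are all lowest in growth medium within the time course.

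H19/Mir675 had a log2 value of 13.99 before the switch, 14.42 on day 0, 14.79 on day 2 and 14.79 on day 4. Day 0 exceeded growth medium by 0.43 and day 2 exceeded day 0 by 0.37, while day 4 differed from day 2 by 0.01. These readings lie near the top of the scale, whose highest value on any of the 6 arrays was 15.09. In the stable lines it read 14.04 in shRp58 cells and 14.28 in control cells, a difference of -0.24. Under 3 other normalizations the day 0 difference ran from 0.23 to 0.44 and the hairpin difference from -0.24 to -0.18, while the day 4 minus day 2 value took either sign.

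The nearby Igf2 gene, whose protein is the fetal growth ligand of the IGF1 receptor, spread more widely than H19 in its brightest probe set. That probe set read 9.62 before the switch, 10.22 on day 0, 12.14 on day 2 and 12.55 on day 4, with 9.78 in shRp58 cells and 10.95 in control cells. The second Igf2 probe set read 8.43, 8.14, 8.26 and 8.95 over the same 4 samples and 6.62 in shRp58 cells against 6.64 in control cells. The gene's hairpin difference of -1.17 was thus seen by the brighter of its 2 probe sets, and the dimmer one differed by -0.02.

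Meg3, the maternal noncoding RNA beside Dlk1, was close to flat. Its brightest of 11 probe sets read 10.10 before the switch, 9.95 on day 0, 10.00 on day 2 and 10.08 on day 4, and 8.41 in shRp58 cells against 8.56 in control cells. Over all 11 probe sets the day 0 minus growth medium difference ran from -0.40 to 0.36, with 4 above 0 and 7 below. The hairpin difference ran from -0.21 to 0.31, with 5 above 0 and 6 below, and no Meg3 probe set was 1.5-fold apart in a step of the time course or between the stable lines.

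Peg3, the zinc finger protein known from muscle progenitors, was higher at day 0 in its 3 bright probe sets. The brightest read 12.65 before the switch, 13.39 on day 0, 13.26 on day 2 and 13.41 on day 4. The next read 12.39, 13.19, 12.55 and 12.66 over the same samples, and the third 11.25, 12.16, 11.78 and 11.94. Their day 0 differences were 0.74, 0.80 and 0.91, and all 3 were lower at day 2 than at day 0, by -0.13, -0.64 and -0.37. The other 2 Peg3 probe sets read 6.15 and 5.85 at their highest and were lower at day 0, by -0.27 and -0.53.

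In the stable lines the 3 bright Peg3 probe sets were lower in shRp58 cells, by -0.21, -0.35 and -0.18, and the 2 dim ones higher, by 0.10 and 0.26. The brightest read 12.70 in shRp58 cells and 12.91 in control cells. Between day 0 and growth medium, differences depended on level: the median was -0.08 in the dimmest of 5 equal groups of probe sets and 0.22 in the brightest, to which the 3 bright Peg3 probe sets belong. The brightest Peg3 probe set differed by 0.58 after quantile normalization and by 0.53 after cyclic loess, which adjusts for level, both short of 1.5-fold.

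Plagl1, a zinc finger factor that restrains proliferation, was lowest at day 0. Its brightest probe set read 9.10 before the switch, 8.07 on day 0, 8.15 on day 2 and 8.88 on day 4. The difference was -1.03 for day 0 minus growth medium and 0.73 for day 4 minus day 2. Of all 13242 kept genes, those with a highest value of at least 7.95, 0.317% were at least 2-fold lower at day 0, and 2.62% were at least 1.5-fold higher at day 4 than at day 2. The name of this probe set ends in x_at, Affymetrix's mark for probes that may also match other transcripts.

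The other 2 Plagl1 probe sets stayed below 7.95 on all 6 arrays. The first of them read 7.90, 7.48, 7.88 and 7.81 from growth medium to day 4, and the other 7.32, 7.09, 7.14 and 7.35. Both were thus also lower at day 0 than in growth medium, by -0.42 and -0.22, and the mean of the 3 probe sets gave -0.56. In the stable lines the brightest read 7.38 in shRp58 cells and 7.15 in control cells, a difference of 0.23, and the others differed by 0.08 and 0.02. The 3 kept genes whose time courses lay closest to Plagl1, by root mean square distance over the 4 arrays after removing each gene's mean, were Krt13 (0.13), Cdsn (0.16) and Vmn2r1 (0.16). Their hairpin differences, which the distance did not use, were 0.80, -0.14 and 0.50.

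Mest was read by 1 probe set, at 9.89 before the switch, 10.71 on day 0, 9.95 on day 2 and 9.98 on day 4. The differences were 0.81 for day 0 minus growth medium, -0.75 for day 2 minus day 0 and 0.03 for day 4 minus day 2. The day 0 sample thus stood alone above the other 3. Over other normalizations the day 0 difference was 0.62 to 0.82 and the day 2 difference -0.76 to -0.68. In the stable lines Mest read 8.98 in shRp58 cells and 8.66 in control cells, a difference of 0.31, which 94.8% of kept genes lay below.

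Dlk1, which blocks fat cell formation when shed from the membrane, had 1 probe set that reached 7.95. It read 9.43 before the switch, 8.98 on day 0, 9.30 on day 2 and 9.37 on day 4, and 7.35 in shRp58 cells against 7.29 in control cells. The dimmer one read 6.92, 7.12, 6.92 and 6.91, so the 2 probe sets took opposite signs at day 0, -0.45 and 0.20. Neither was 1.5-fold apart in any step of the time course, and between the stable lines they differed by 0.06 and 0.10.

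Grb10, the receptor adaptor, read 8.20 before the switch, 7.98 on day 0, 8.26 on day 2 and 8.65 on day 4 in its brightest probe set, and day 4 exceeded day 0 by 0.67. Its other 2 probe sets stayed below 7.95 and differed by -0.06 and 0.06 in that comparison. In the stable lines the brightest read 7.26 in shRp58 cells and 6.96 in control cells, a difference of 0.30, against 0.05 and -0.20 for the others. The day 4 difference of Grb10 therefore rests on 1 of 3 probe sets.

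Ndn, which encodes necdin, a growth suppressor of postmitotic neurons also studied in myoblasts, differed most between the stable lines. Its brightest probe set read 7.76 in shRp58 cells and 6.96 in control cells, and 8.50, 8.66, 8.33 and 8.26 from growth medium to day 4. Of 8 Ndn probe sets 7 were higher in shRp58 cells, with differences from -0.01 to 0.94 and a median of 0.46, and 3 were past 1.5-fold. Only 2 of the 8 reached the median of all values in the table on any array, and they differed by 0.81 and -0.01. Of the 3 past 1.5-fold, the brightest alone reached that median, and only on time-course arrays. In the stable lines, whose own medians were 7.149 and 7.146, no Ndn probe set reached 7.95. The leukocyte and endothelial markers read up to 8.42 on both of these arrays, above the brightest Ndn probe set. The count of 7 and the difference of 0.81 thus rest on dim readings. Of all kept genes 1.43% were at least 1.5-fold higher in shRp58 cells. The brightest probe set's difference of 0.81 was above that of 99.6% of them.

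The Ndn probe sets were grouped by the sign of their day 0 minus growth medium value, a split made after the values were seen. That value and day 4 minus day 0 both use the single day 0 array, with opposite sign. Opposite signs between these comparisons are therefore partly built in. The 4 that were higher at day 0, by 0.07 to 0.18, were all lower at day 4 than at day 0, by -0.52 to -0.40, and higher in shRp58 cells, by 0.52 to 0.94. The 4 that were lower at day 0, by -0.41 to -0.31, were all higher at day 4, by 0.12 to 0.53, and differed between the stable lines by -0.01 to 0.40. Of 7 markers of neurons, all 6 kept were higher in shRp58 cells than in control cells (median 0.82), where 47.5% of all kept genes lay above 0. Nefm differed by 1.56, Nefl by 1.39, Stmn2 by 0.88, Tubb3 by 0.75, Syt1 by 0.22 and Map2 by 0.01. The median level of the 7 markers was 9.66 in shRp58 cells and 8.33 in control cells. Over the time course their summed linear signal, relative to day 0, was 81.0% in growth medium, 17.4% at day 2 and 18.7% at day 4. The part of these genes in the Ndn difference was not tested. The annotation pairs all 8 with Ndn alone, but the names of several, though not the brightest, end in x_at, the mark described above for Plagl1. The direction of Ndn in the time course depends on the probe set.

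**Figure D2:**
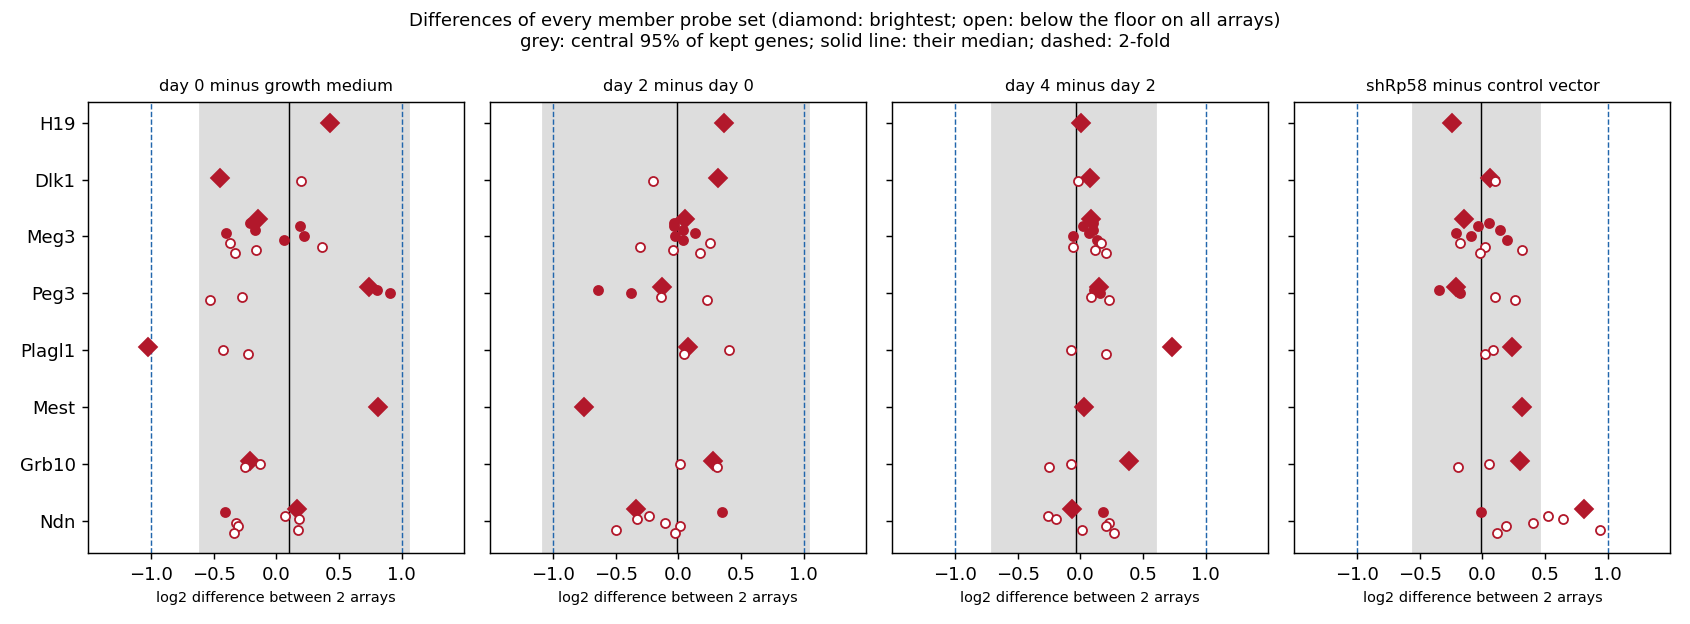
Log2 difference (horizontal axis) of every member probe set in 4 comparisons of single arrays, with the central 95% of kept genes in grey, their median as a solid line and 2-fold as dashed lines. The brightest Plagl1 probe set at -1.03 is the only point past 2-fold, and Ndn holds the points furthest right between shRp58 and control cells.

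As a set, the brightest probe sets of the 8 genes split evenly at day 0 against growth medium, with 4 higher and 4 lower and a median of 0.01, beside a median of 0.10 over all kept genes, of which 61.2% lay above 0. At least 1.5-fold higher were 2 of the 8, Peg3 and Mest, against 10.9% of kept genes. At least 1.5-fold lower was 1, Plagl1, against 2.94%. Relative to the median of all genes, Plagl1 stood at -1.12, Mest at 0.72 and Peg3 at 0.64. Of the 17 probe sets below 7.95 on all arrays, 12 were lower at day 0, near the 64.5% of all 17680 probe sets that dim. No member was 2-fold higher, against 2.91% of kept genes.

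At day 2 against day 0, 5 members were higher and 3 lower (median 0.07), and 1, Mest, was at least 1.5-fold lower, against 8.34% of kept genes, and none was 1.5-fold higher, against 6.68%. Of all kept genes 48% lay above 0 at day 2. At day 4 against day 0, 6 were higher and 2 lower (median 0.25, against -0.04 over all genes, of which 45.2% lay above 0). Plagl1 and Grb10 were then at least 1.5-fold higher, against 8.36% of kept genes, and Mest lower, against 14% of them. Neither of these comparisons had a member 2-fold apart, where kept genes stood at 2.67% higher and 2.96% lower at day 2, and at 3.83% higher and 5.66% lower at day 4. At day 4 against day 2, 7 members were higher and 1 lower (median 0.08), where 43.9% of kept genes lay above 0. Plagl1 was the 1 member at least 1.5-fold higher in that step, and none was 1.5-fold lower, against 4.19% of kept genes. The 2-fold share there was 0.808% in each direction, with no member.

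Between shRp58 and control cells 5 members were higher and 3 lower (median 0.15, against -0.01 over all genes, of which 47.5% lay above 0), and none was 2-fold apart, against 0.0529% of kept genes higher and 0.619% lower. The 3 lower ones, H19/Mir675, Meg3 and Peg3, had differences of -0.24, -0.15 and -0.21. No member was 1.5-fold lower, against 2.25% of kept genes. Differences depended on level here too: 58.3% of probe sets in the dimmest of 5 equal groups lay above 0, and 42.5% in the brightest. The group medians were 0.04 and -0.03. H19/Mir675 and the brightest Peg3 probe set belong to the brightest group. The brightest Plagl1, Dlk1, Grb10 and Ndn probe sets, all on the higher side, read below 7.95 on both of these arrays. The part of level in the split was not tested. With so few members these counts describe the 8 genes and say nothing on whether they stand apart from other genes.

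Set against parental day 0 cells, Mest was lower in both stable lines. Relative to the median of all kept genes, a comparison that crosses the differently scaled arrays, Mest stood at -0.71 in shRp58 cells and -1.02 in control cells, and after quantile normalization of the 6 arrays at -0.63 and -0.98. The control difference was the only one past 2-fold there among the brightest probe sets of the members, against 1.67% of kept genes lower and 1.69% higher by that much. Markers also differed from parental day 0 cells. As unadjusted percentages of the day 0 sum, mitosis genes stood at 50.5% in shRp58 cells and 28.3% in control cells. Myogenic genes stood at 64.0% and 111%, and leukocyte and endothelial markers at 48.0% and 46.8%. The part of these shifts in the Mest difference was not tested. The brighter Dlk1 probe set stood at -0.61 in shRp58 cells and -0.67 in control cells, and the dimmer at -0.01 and -0.10. H19/Mir675 stood at 0.64 in shRp58 cells and 0.88 in control cells, but at 0.12 and 0.29 after quantile normalization, so its size depended on the scaling. For the brightest Ndn probe set the values were 0.12 in shRp58 cells and -0.69 in control cells, but its 8 probe sets ran from -0.02 to 1.23 in shRp58 cells and from -0.69 to 1.03 in control cells. The sign of Ndn against parental cells therefore depends on the probe set, and the mean over probe sets was 0.20 in control cells.

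**Figure D3:**
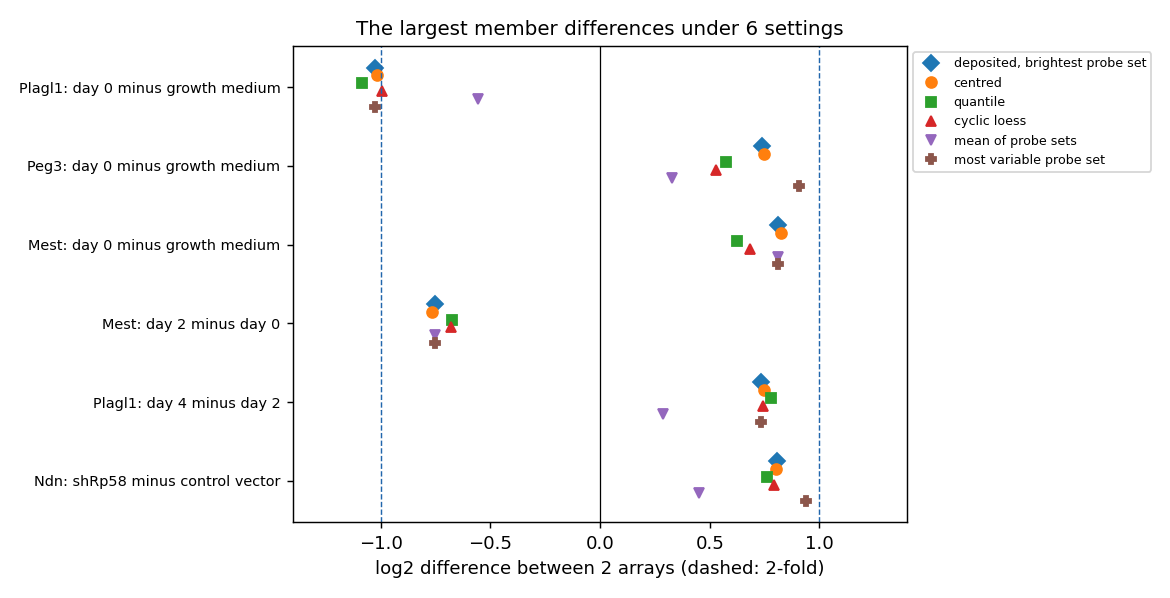
Selected larger member differences (horizontal axis, log2) under the deposited values and 5 other settings, 1 marker a setting. Plagl1 at day 4 against day 0 (0.81) and the comparisons with parental cells are not drawn. Every difference drawn keeps its sign. Plagl1 at day 0 is past 2-fold in the deposited, centred, quantile and most variable probe set settings, the last of which uses the same probe set. It is not past 2-fold after cyclic loess (-0.99) or over the mean of its probe sets (-0.56).

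Genes next to the members in their imprinted regions varied among themselves. In the H19, Igf2 and Kcnq1 regions, 13 other kept genes had a median of 0.26 at day 4 against day 0, beside -0.04 over all kept genes. Igf2 (2.33) and the cell cycle inhibitor Cdkn1c (2.24) were past 2-fold, where 3.83% of all kept genes were 2-fold higher. With Tnfrsf23 (0.99), Ins2 (0.67) and Osbpl5 (0.61), 5 of the 13 were past 1.5-fold, against 8.36% of all kept genes. Cdkn1c read 7.34, 7.74, 7.74 and 9.98 from growth medium to day 4, so only the day 4 value reached 7.95. In shRp58 cells 9 of these 13 were lower than in control cells (median -0.10), with Igf2 alone past 2-fold, where 51.3% of all kept genes lay below 0 (median -0.01) and 0.619% were 2-fold lower. Cd81, Tssc4, Kcnq1, Kcnq1ot1, Slc22a18, Phlda2, Nap1l4 and Th lay between -0.29 and 0.44 at day 4 against day 0.

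The noncoding RNAs Rian and Mirg, transcribed beyond Meg3, were lower at day 0 than in growth medium in their brightest probe sets. The brightest Rian probe set differed by -0.57 for day 0 minus growth medium and by 0.76 for day 4 minus day 0, where the other 3 differed by 0.06 to 0.08. The brightest of Mirg read 9.71, 8.78, 9.05 and 9.25 from growth medium to day 4. Both stood 0.39 higher in shRp58 cells, where Rian read 7.43 against 7.04 in control cells and Mirg 7.75 against 7.36, while the other Rian probe sets differed by 0.17, 0.10 and 0 and the other Mirg one by 0.08. All 4 Rian probe sets were lower at day 0, by -0.14 to -0.79, while the second Mirg probe set differed by -0.02 in that step.

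Beside Peg3, Usp29 differed by 0.38, Zim1 by 0.39 and Zim3 by -0.67 at day 0 against growth medium, and Zim2 was below 7.95. Beside Ndn, Magel2, Snrpn, Ube3a and Atp10a differed by 0.13, 0.02, -0.23 and -0.09 between shRp58 and control cells, so none came near the 0.81 of Ndn, and Mkrn3 and Peg12 were below 7.95. Beside Mest, Copg2 read 9.48, 10.47, 10.20 and 10.45 from growth medium to day 4, while Klf14 and Cpa4 differed by -0.00 and -0.30 at day 0 against growth medium. Sgce, of the Peg10 region, read 9.97, 10.73, 10.37 and 9.92 from growth medium to day 4, like Mest highest at day 0. Peg10 itself was below 7.95.

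The flanking genes of Grb10 were lower in shRp58 cells than in control cells, while the probe sets of Grb10 itself took both signs. Cobl, an actin nucleator, read 9.36, 10.57, 12.28 and 12.57 from growth medium to day 4, and 9.71 in shRp58 cells against 10.59 in control cells. Ddc, which makes dopamine and serotonin, read 7.20 in shRp58 cells against 8.12 in control cells. The Grb10 probe sets differed by 0.30, 0.05 and -0.20 there, and the brightest ones of Cobl and Ddc by -0.88 and -0.92.

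**Figure D4:**
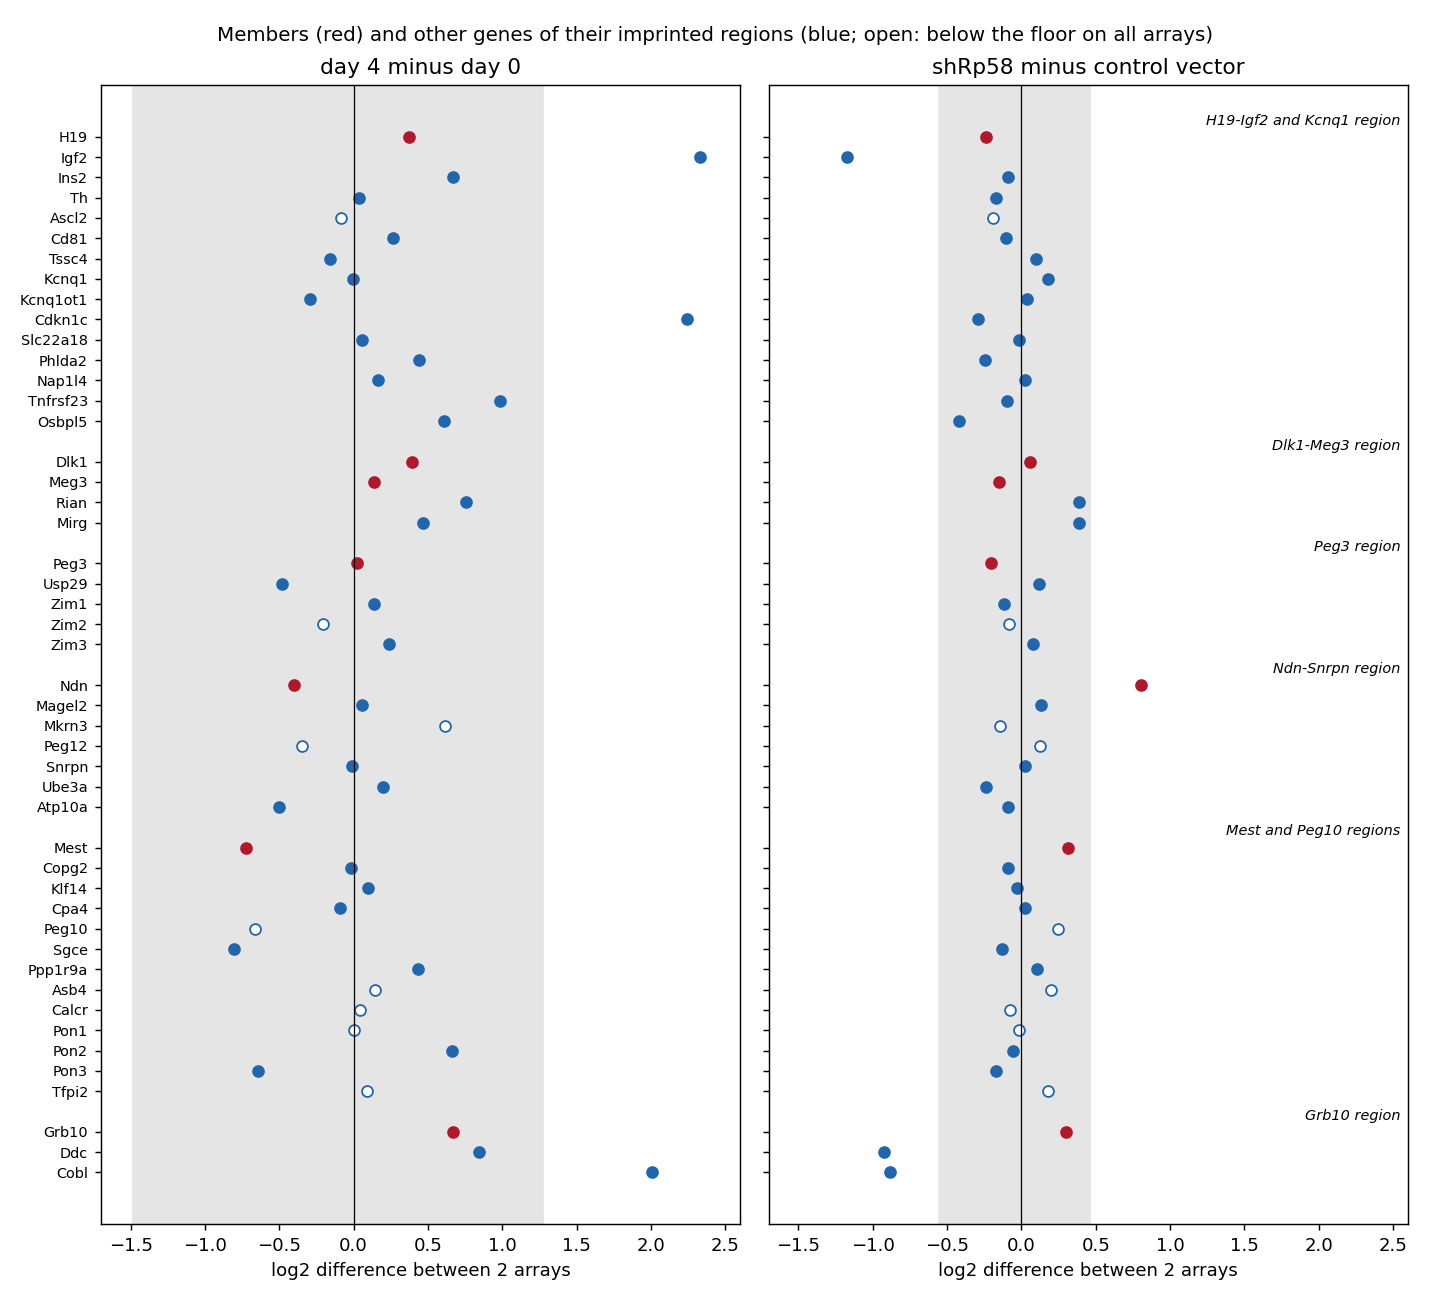
Log2 difference of members (red) and other genes of their regions (blue) at day 4 against day 0 (left) and in shRp58 against control cells (right), 1 array each, with the central 95% of kept genes in grey. Igf2, Cdkn1c and Cobl lie right of the grey range at day 4, and Ndn is the only member outside it in the hairpin comparison.

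By parental origin, 27 kept genes expressed from the maternal copy in at least some tissues had a median of 0.07 at day 0 against growth medium and 0.16 at day 4 against day 0, and 16 expressed from the paternal copy had 0.25 and 0.00, beside 0.10 and -0.04 over all kept genes. Between shRp58 and control cells the medians were -0.10 and 0.02, beside -0.01. The maternal list had 3 genes 2-fold higher in some comparison, Gatm at day 0 (1.01), the matrix proteoglycan gene Dcn at day 2 (2.41) and day 4 (3.04), and Cdkn1c at day 4. These are 1 of 27 at day 0 and 2 of 27 at day 4, against 2.91% and 3.83% of kept genes. Gatm was below 2-fold under another normalization (0.82), and the dimmer of the 2 Dcn probe sets differed by 0.22 at day 4. The paternal list had Igf2 2-fold higher at day 2 and day 4 and 2-fold lower in shRp58 cells, and Plagl1 2-fold lower at day 0.

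Relatives of the members went their own ways. Grb14, the insulin receptor adaptor related to Grb10, was -1.57 lower at day 2 than at day 0, reading 7.55, 8.09, 6.52 and 6.71 from growth medium to day 4, and Grb7 stayed below 7.95. Plagl2 differed by -0.17 at day 0 against growth medium and Plag1 was below 7.95. Of the MAGE genes, Maged2 was 1.19 and Maged1 0.75 higher at day 0 than in growth medium, and in shRp58 cells they differed from control cells by -0.01 and -0.24, with Magee1 at -0.03 and Nsmce3 at -0.35. Among the Dlk1-related genes, Dlk2 differed by 0.31 at day 4 against day 0, Notch1 by -1.10 and Notch3 by -1.14, and Notch2 by -0.47 and Notch4 by -0.10.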

How the data were processed

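The authors' deposited values are log2 intensities of 45101 probe sets on 6 arrays, made with RMA per the labels, with 10 ug of cRNA on each array. No label states a software version or says if all 6 arrays were normalized as 1 set. The platform annotation gave 34958 probe sets 1 gene, 932 several and 9211 none. Only H19 was taken from a probe set with 2 names. For each of 18194 genes the probe set with the highest mean over the 6 arrays was used, and 13242 genes with a value of at least 7.95 were kept. Differences are log2 values of the first array minus the other, and genes were counted at 2-fold and 1.5-fold. With 1 array a group there is no p-value, and precision is limited by the number of arrays. Named genes were the members, the target, all genes listed as neighbours or relatives, list genes past 2-fold, and the 3 nearest profiles of members spanning at least 1 log2 unit. Members and lists were chosen with earlier results of these data known. Quantile and cyclic loess normalization used limma 3.58.1 in R 4.3.3, and the rest Python 3.11.15. The picking and counting were tested on simulated data. Sequences are from RefSeq, GRCm38.p6.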

Additional observations from a re-analysis of the deposited data

How the results depend on the processing

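No paired analysis was possible because each group holds 1 array. Of 240 member differences under 5 planned settings, 224 moved by less than the robust spread of all kept genes and 16 by more. Some could not move, because H19 and Mest have 1 probe set. Settings that average or choose probe sets left their differences the same within each set of arrays. None past 2-fold changed sign, but these were only Plagl1 at day 0 and Mest in control against parental cells. Smaller ones did change sign, such as Ndn at day 0 against growth medium (-0.10 to 0.21) and Grb10 between the stable lines (-0.20 to 0.30). Plagl1, the member 2-fold lower at day 0, left 0 such members after cyclic loess, over the mean of probe sets and with the filter at the 75th percentile (9.62). Kept genes 2-fold lower at day 0 numbered 42, against 24 with that filter and 88 after quantile normalization, which turned the median of all genes from 0.10 to -0.03 and the share of higher genes among those 2-fold apart from 90.2% to 76.7%. For control against parental cells, relative to the median, 221 kept genes were 2-fold lower, against 122 with the stricter filter and 133 over the mean of probe sets, and Mest fell below 2-fold, leaving 0 members, after quantile normalization and over the mean of probe sets. The cause of these shifts was not tested.

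At 1.5-fold, kept genes higher and lower numbered 1443 and 389 at day 0 against growth medium, 885 and 1105 at day 2 against day 0, 1107 and 1852 at day 4 against day 0, 347 and 555 at day 4 against day 2, 189 and 298 in shRp58 against control cells, and 794 and 999 for control against parental cells relative to the median. Members past 1.5-fold were 2 higher and 1 lower at day 0 against growth medium, and 1 lower at day 2 against day 0. At day 4 they were 2 higher and 1 lower against day 0, and 1 higher against day 2. In shRp58 cells 1 was higher, and in control against parental cells, relative to the median, 1 was higher and 3 lower. Leukocyte and endothelial markers read up to 9.46 on the time-course arrays and up to 8.42 on both stable-line arrays. This limits the brightest Plagl1, Dlk1, Grb10 and Ndn probe sets as well as the dim ones, in both sets of arrays.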

Other observations

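A pair of genes that maintain imprints were lower in differentiated cells. Uhrf1, which guides the maintenance methyltransferase to replicated DNA, was lower by -2.49 on day 2 and by -3.20 on day 4 than on day 0 in its brightest probe set. Its second probe set read 9.76, 9.77, 7.44 and 7.42 from growth medium to day 4. Dnmt1, that methyltransferase, read 12.10, 12.29, 10.90 and 10.73 in its brightest probe set, and its other 2 probe sets were lower at day 4 than at day 0 by -1.79 and -1.34. In shRp58 cells Uhrf1 read 9.95 against 9.06 in control cells, and Dnmt1 11.16 against 10.63. Among 14 kept genes of that list, Dnmt1 and Uhrf1 were the 2 past 2-fold at day 4, where 5.66% of all kept genes were 2-fold lower. The list's median was -0.16, beside -0.04 over all kept genes. The 9 mitosis genes were all 2-fold lower in the same comparison (median -3.04), and their part in these values was not tested.

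At the Igf2r locus, the receptor gene Igf2r and the overlapping noncoding Airn were both higher at day 0 than in growth medium in their brightest probe sets. Igf2r read 10.26 at day 0 against 9.19 in growth medium in one probe set, and 11.12 against 10.13 in the other. The brightest Airn probe set read 8.46 at day 0 against 7.47 in growth medium. In shRp58 cells the brightest probe set of Igf2r differed from control cells by -0.27 and that of Airn by -0.41. The other Airn probe sets differed by 0.96, 0.34, 0.17 and -0.23 at day 0 against growth medium, and of these only the first reached 7.95. In the same order they differed by -0.24, 0.10, -0.38 and 0.16 in shRp58 against control cells. Among 18 genes of the insulin and IGF pathway, Igfbp4 (1.32) and Igfbp5 (1.21) were 2-fold higher at day 0, against 2.91% of kept genes.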
